A study of Homo sapiens with 4 samples.

Results

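PIK3R3, a regulatory subunit gene of phosphoinositide 3-kinase (PI3K), was followed together with 9 other PI3K subunit genes in U87 cells, an established human glioblastoma line. The 10 genes are 4 regulatory subunits (PIK3R1, PIK3R2, PIK3R3 and PIK3R4) and 6 catalytic subunits (PIK3CA, PIK3CB, PIK3CD, PIK3C2A, PIK3C2B and PIK3C3), taken by symbol from 58219 genes in the count table. PIK3R3 was chosen by its measured log2 fold change between the carnosine and control libraries, so that change is described here without a test. The other 9 genes were taken for belonging to its family. All 10 genes were among the 16340 genes that had enough counts to be tested. Cells kept for 24 h in fresh medium with 50 mM carnosine, the dipeptide beta-alanyl-L-histidine, gave 2 libraries. Cells kept for the same time in fresh medium with 0 mM carnosine gave the other 2. Both groups grew in glucose medium without pyruvate, supplemented with fetal bovine serum, and both come from a single cell line. The labels do not say whether replicates came from separate cultures, so p values measure only the spread between these libraries, which may be technical.

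PI3K enzymes add a phosphate to inositol lipids of membranes. In class IA, a catalytic subunit is held stable and inactive by a regulatory subunit, whose SH2 domains bind phosphorylated tyrosines of growth factor receptors and their adaptors and so bring the enzyme to the membrane. The product of class I enzymes recruits the kinases PDPK1 and AKT. Class II enzymes work without such a partner, and the class III enzyme PIK3C3 (VPS34) works with PIK3R4 (VPS15) in autophagy and endosome traffic. The pathway is often active in glioblastoma.

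PIK3R3 (ENSG00000117461.14) lies on the minus strand of chromosome 1, from 46040140 to 46133036 (GRCh38, GENCODE 29). It encodes the gamma regulatory subunit, a short form that lacks the SH3 domain of the alpha and beta subunits. PIK3R1 (ENSG00000145675.14), which encodes the alpha subunit and its shorter isoforms, lies on the plus strand of chromosome 5, from 68215720 to 68301821. The bases just upstream of the outer end that GENCODE 29 gives each gene are shown because these regulatory subunits had the clearest differences of the class, and capitals mark the letters CCAAT or, on the other strand, ATTGG. The sequences are RefSeq's (GRCh38.p14), on the strand of the gene, at chr1:46133037-46133286 and chr5:68215506-68215719.
PIK3R3: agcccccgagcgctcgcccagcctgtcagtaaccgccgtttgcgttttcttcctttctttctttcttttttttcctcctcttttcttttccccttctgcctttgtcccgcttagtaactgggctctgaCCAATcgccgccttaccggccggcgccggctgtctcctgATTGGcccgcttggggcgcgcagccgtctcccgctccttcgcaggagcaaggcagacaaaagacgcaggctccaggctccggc
PIK3R1: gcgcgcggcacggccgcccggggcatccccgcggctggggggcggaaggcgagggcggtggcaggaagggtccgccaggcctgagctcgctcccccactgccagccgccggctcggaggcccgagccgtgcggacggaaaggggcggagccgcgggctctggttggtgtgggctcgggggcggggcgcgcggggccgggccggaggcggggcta
The PIK3R3 stretch of 250 bases had a GC content of 60.4%, 21 CG dinucleotides and 2 CCAAT matches. The PIK3R1 stretch of 214 bases had a GC content of 81.8%, 31 CG dinucleotides and 0 CCAAT matches. CCAAT, on either strand, occurred in 11240 of 35116 RefSeq promoter windows of 250 bases. Among the RefSeq windows of these genes, it was in 3 of 6 for PIK3R3 and in 1 of 4 for PIK3R1. RefSeq lists 6 start windows for PIK3R3, of which 1 has its start farther upstream, at 46174901, and 4 for PIK3R1, and gene counts do not tell which start was used. The forkhead letters TGTTTAC or TATTTAC, which occurred on either strand in 5.27% of all windows, were in 1 of the 6 windows of PIK3R3, in 0 of the 4 windows of PIK3R1 and in the single window of PIK3CA. These matches are letters in a window and do not show binding.

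Gene counts summed to between 51632970 and 57728762 in the carnosine libraries and between 59155538 and 71766267 in the control libraries. The 10 genes held from 53 counts (PIK3R2, carnosine replicate 2) to 5359 counts (PIK3C2A, control replicate 1) in a library. Summed levels of 8 markers of other cell types were 8.21 and 7.39 CPM (read counts relative to the library size as scaled by edgeR) with carnosine, against 3.56 and 4.21 CPM in controls. Most of that sum was PECAM1, an adhesion gene of endothelial cells, with 6.07 and 5.26 CPM with carnosine, against 2.08 and 2.61 CPM in controls. PECAM1 passed the test (log2 fold change 1.28 ± 0.21 SE, adjusted p = 0.0215, edgeR). CDH5 (endothelium), RBFOX3 (neurons) and MOG (oligodendrocytes) were at 0 in every library, and the leukocyte marker PTPRC had between 0 and 8 counts. Of 8 glioma and astrocyte markers, AQP4 and S100B were at 0 in every library, SOX2 had between 0 and 2 counts and GFAP between 4 and 16 counts, so these defining markers were nearly absent from the cells. The summed level of those 8 was 163 and 227 CPM with carnosine, against 105 and 133 CPM in controls, and came mostly from the glutamate transporter SLC1A3. SLC1A3 passed the test (log2 fold change 1.07 ± 0.17 SE, adjusted p = 0.0203, edgeR). OLIG2, of the same list, had the opposite direction and did not pass, with 105 and 126 counts with carnosine, against 253 and 241 in controls (log2 fold change -0.85 ± 0.26 SE, adjusted p = 0.0858, edgeR), and the log2 change of NES was -0.33 ± 0.23 (SE, adjusted p = 0.404, edgeR). The 5 mesenchymal markers were abundant and their sums overlapped, with 12573 and 14178 CPM with carnosine, against 14458 and 14033 CPM in controls. Of these, CHI3L1 rose (0.55 ± 0.10 SE, adjusted p = 0.0243, edgeR), while VIM, at -0.37 ± 0.14 (adjusted p = 0.139), did not pass. The part of these markers in the results below was not tested. In such bulk samples, fewer cells of a type and less RNA per cell cannot be told apart.

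PIK3R3 was higher with carnosine by a factor of 5.25 (log2 fold change 2.39 ± 0.21 SE, n = 2 each), the largest change among the 10 genes. It had 47.2 and 54.6 CPM in the carnosine libraries, against 11.7 and 7.62 CPM in the control libraries. Both carnosine libraries lay far above both controls, while the controls differed from each other by a factor of 1.54. The counts behind these values were 2840 and 2749 with carnosine, against 833 and 447 in controls. By log2 fold change PIK3R3 ranked 105 of the 16340 genes tested. Per kilobase of exon, its level with carnosine exceeded that of 56.7% of tested protein-coding genes, against 23.2% in controls. Leaving out carnosine replicate 1 or 2 gave log2 fold changes of 2.49 and 2.28, and leaving out control replicate 1 or 2 gave 2.74 and 2.12.

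**Figure D1:**
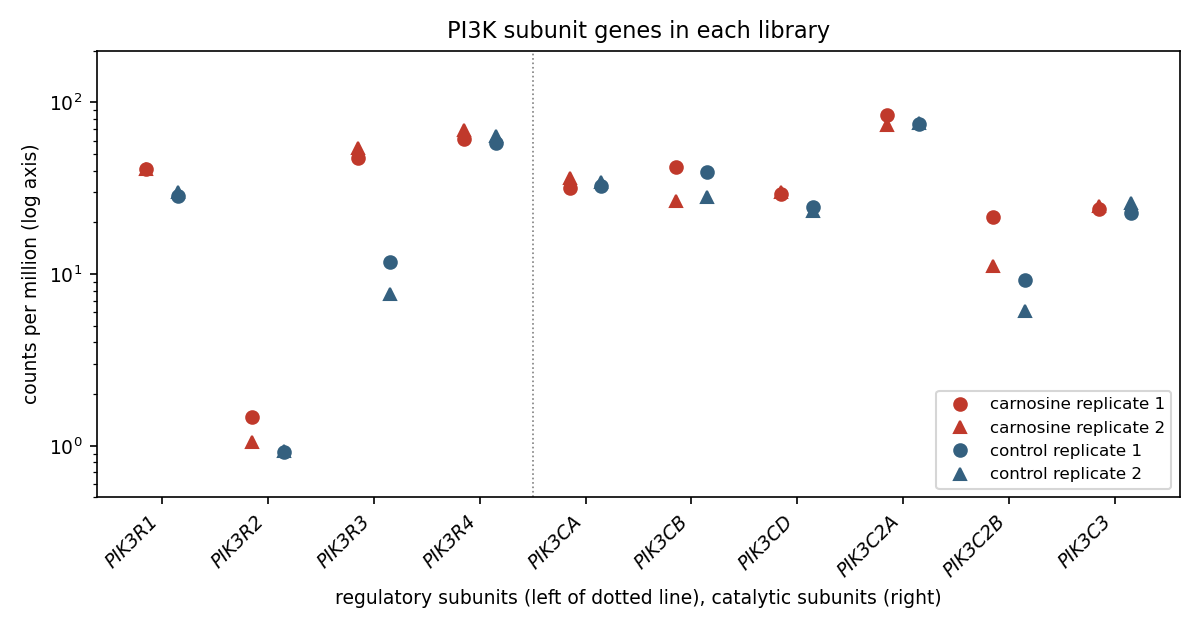
Level of each PI3K subunit gene in CPM on a log axis, 1 point per library, with carnosine libraries drawn left of control libraries. PIK3R3 sits at 47.2 and 54.6 CPM with carnosine, against 11.7 and 7.62 CPM in controls, while most catalytic genes have overlapping points.

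Of the other regulatory subunits, PIK3R1 rose. It had 41.2 and 40.9 CPM with carnosine, against 28.6 and 30.3 CPM in controls. The libraries of the groups lay apart, and those within a group differed by little. The log2 fold change was 0.48 ± 0.10 (SE, 1.39-fold, n = 2 each, adjusted p = 0.0338 in edgeR's quasi-likelihood test), past the threshold of 0.05. That call ended without carnosine replicate 1 (adjusted p = 0.0599), control replicate 1 (0.195) or control replicate 2 (0.130), while the log2 fold change stayed between 0.44 and 0.52 without any 1 of the 4 libraries. Such fits have fewer samples and 1 residual degree of freedom.

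PIK3R2, the gene of the beta regulatory subunit, had 1.48 and 1.05 CPM with carnosine, against 0.914 and 0.937 CPM in controls. Its log2 fold change was 0.45 ± 0.33 (SE, adjusted p = 0.428, edgeR) and did not pass, although the libraries lay apart. Its level is uncertain, because 87.2% of its exonic bases (3947 of 4524, chromosome 19, 18153118 to 18170540) also belong to the annotated gene AC007192.1 on the same strand. That gene was listed with 2 and 0 counts with carnosine, against 0 and 0 in controls. The sources used here do not give how reads in bases shared by 2 genes were counted.

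PIK3R4, which encodes the partner of the class III kinase, had 61.2 and 69.2 CPM with carnosine, against 58.0 and 64.1 CPM in controls. The groups overlapped, and its log2 fold change was 0.10 ± 0.11 (SE, adjusted p = 0.621, edgeR).

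None of the 6 catalytic subunit genes passed edgeR's test with the main settings. DESeq2 called 1 (PIK3C2B), against 13.0% of all genes, and limma-voom called 0, against 8.09%. In edgeR 2 had an unadjusted p under 0.05, a cutoff for which the share of all genes is not given. PIK3CA, the alpha catalytic subunit gene that is often mutated in cancer, had 31.9 and 36.1 CPM with carnosine, against 32.6 and 34.5 CPM in controls. The groups overlapped, and the log2 change was 0.02 ± 0.11 (SE, adjusted p = 0.934, edgeR). Of its exonic bases, 35.8% lie under exons of KCNMB3 on the opposite strand, a gene with 16 to 32 counts in a library.

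PIK3CB, the beta catalytic subunit gene, had 42.0 and 26.7 CPM with carnosine, against 39.1 and 28.0 CPM in controls. Replicate 1 was the higher library in both groups, by factors of 1.57 with carnosine and 1.40 in controls, and these gaps were larger than the difference between the groups. The log2 fold change was 0.03 ± 0.24 (SE, adjusted p = 0.945, edgeR).

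PIK3CD encodes the delta catalytic subunit, best known from leukocytes. It had 29.4 and 30.0 CPM with carnosine, against 24.7 and 23.3 CPM in controls. The libraries lay apart, but its log2 fold change of 0.31 ± 0.10 (SE, 1.24-fold) did not pass (adjusted p = 0.114, edgeR).

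Of the class II kinases, PIK3C2B had 21.5 and 11.1 CPM with carnosine, against 9.18 and 6.12 CPM in controls. Replicate 1 was again the higher library in both groups, by a factor of 1.94 with carnosine and by less in controls, and the lower carnosine library lay above the higher control. The log2 fold change was 1.09 ± 0.33 (SE, 2.13-fold, adjusted p = 0.0871, edgeR), second in size to PIK3R3, and did not pass. Without carnosine replicate 1 it was 0.53, and without carnosine replicate 2 it was 1.48. Leaving out control replicate 1 gave 1.41, and leaving out control replicate 2 gave 0.82. Whether PIK3C2B passed is given here only for fits that kept every library. It passed with DESeq2 (adjusted p = 0.00770). In edgeR it passed with no filter on low counts (adjusted p = 1.1e-08) and with the replicate number as a block (9.6e-16). It did not pass with RLE, upper-quartile or unscaled totals, with a filter on the mean count, or with limma-voom (adjusted p = 0.106).

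PIK3C2A, the other class II kinase gene, had 85.0 and 74.2 CPM with carnosine, against 75.4 and 76.1 CPM in controls. Its log2 fold change was 0.07 ± 0.10 (SE, adjusted p = 0.714, edgeR). PIK3C3, the class III kinase gene, had 24.0 and 24.9 CPM with carnosine, against 22.6 and 25.9 CPM in controls. Its log2 fold change was 0.01 ± 0.12 (SE, adjusted p = 0.958, edgeR). The groups overlapped for both genes.

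Besides PIK3R3, 1 of 9 subunit genes passed the test, against 8.31% of all genes tested in either direction and 3.95% in the higher direction, and 0 fell, against 4.36% of all genes. Both carnosine libraries lay above both controls for 4 of these 9 genes (PIK3R1, PIK3R2, PIK3CD and PIK3C2B), against 27.8% of all genes tested. Both lay below both controls for 0 of the 9, against 28.8%, and 5 overlapped, where 56.5% of all genes lay apart either way. All 9 log2 fold changes were above 0, against 50.1% of all genes tested, with a median of 0.10 over the 9 genes and 0.001 over all genes. The signs of PIK3CA, PIK3CB, PIK3C2A and PIK3C3 turned when single libraries were left out. The median was 0.45 over the 3 regulatory genes other than PIK3R3, which is the value of PIK3R2 with its uncertain counts, and 0.05 over the 6 catalytic genes. Without PIK3R2 the regulatory median was 0.29, over PIK3R1 and PIK3R4. These are descriptions of few genes, and the difference between the kinds of subunit was not tested.

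**Figure D2:**
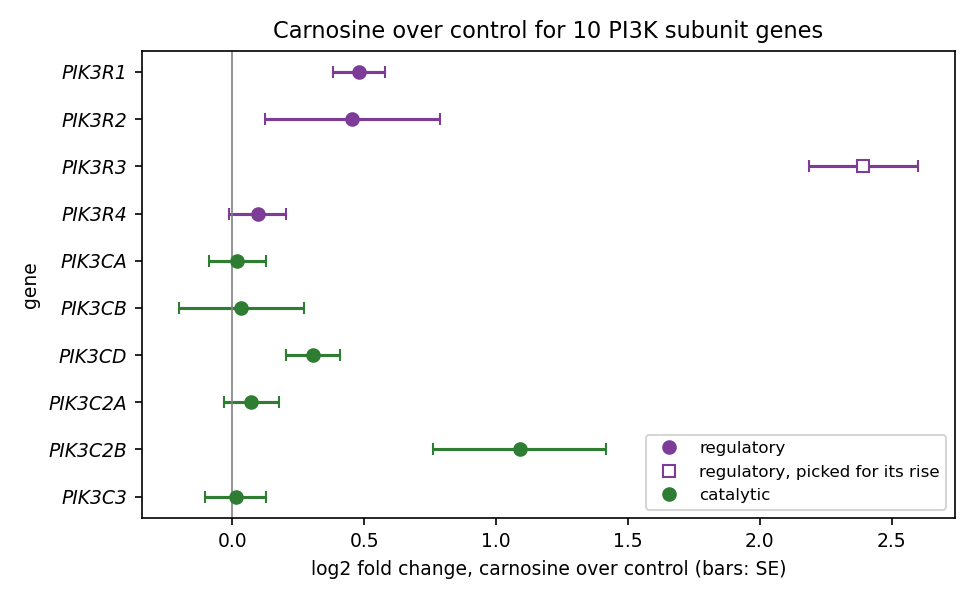
Log2 fold change of carnosine over control for the 10 subunit genes, with bars of 1 SE, regulatory subunits above catalytic ones. PIK3R3, drawn as an open square, stands at 2.39, PIK3C2B at 1.09 and PIK3R1 at 0.48, and 5 of the catalytic genes lie between 0.01 and 0.31.

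The make-up of class IA transcripts was compared per kilobase of exon, the scale on which levels of different genes can be set side by side. Regulatory transcripts (PIK3R1, PIK3R2 and PIK3R3) summed to 10.5 and 11.4 CPM per kilobase with carnosine, against 4.44 and 4.05 in controls. Catalytic transcripts (PIK3CA, PIK3CB and PIK3CD) summed to 13.4 and 11.9 CPM per kilobase with carnosine, against 12.3 and 10.9 in controls. The regulatory sums of the groups lay far apart, whereas the catalytic sums overlapped. The ratio of regulatory to catalytic transcripts was 0.788 and 0.955 with carnosine, against 0.360 and 0.372 in controls. Without PIK3R3 that ratio was 0.311 and 0.338 with carnosine, against 0.232 and 0.277 in controls, so PIK3R3 made up most of the gap. These ratios follow from the contrast for which PIK3R3 was picked and are given without a test.

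PIK3R3 made up 60.5% and 64.6% of class IA regulatory transcripts with carnosine, against 35.6% and 25.4% in controls. PIK3R1 made up 36.3% and 33.3% with carnosine, against 59.8% and 69.5% in controls. The order of these genes thus turned: the PIK3R3 level was 1.67 and 1.94 times that of PIK3R1 with carnosine, against 0.595 and 0.366 times in controls. PIK3R2 accounted for 2.04% to 5.12% of regulatory transcripts in the 4 libraries, a share that rests on its uncertain counts and may be too low if reads in shared bases went uncounted. Scaled to exonic bases that no other gene on the same strand shares, a choice made after seeing the data, PIK3R3 averaged 58.0% with carnosine and 26.5% in controls. On that scale PIK3R2 made up 18.2% and 12.5% with carnosine, against 25.7% and 28.6% in controls. Among catalytic transcripts no gene dominated, with shares from 25.2% (PIK3CA, carnosine replicate 1) to 40.5% (PIK3CB, control replicate 1).

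**Figure D3:**
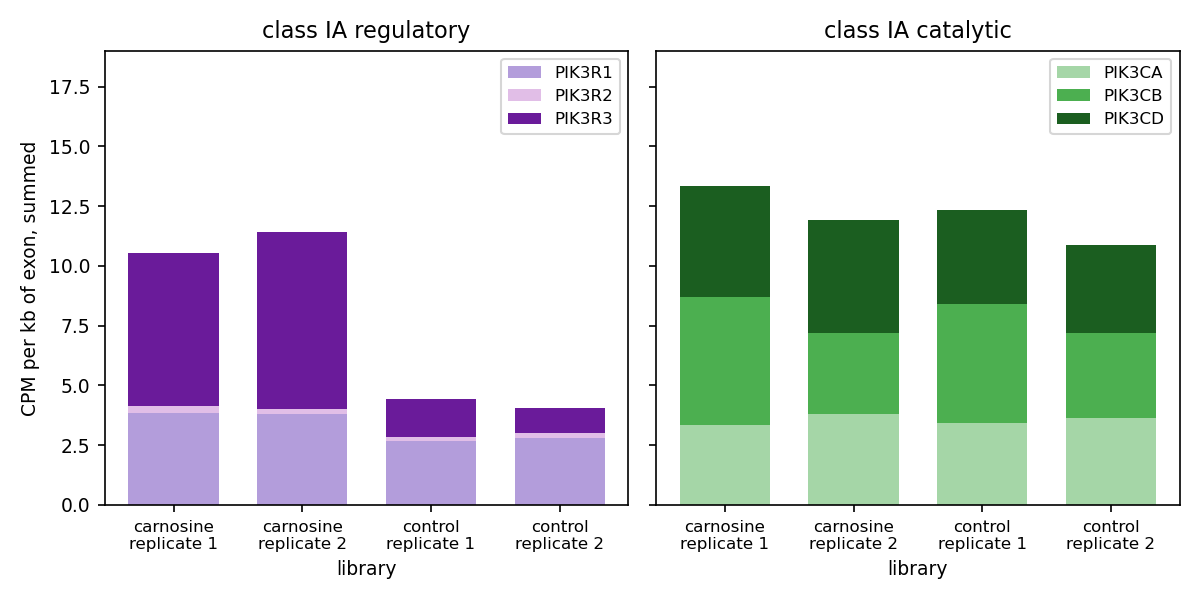
Class IA transcripts in each library, in CPM per kilobase of exon, stacked by gene, with regulatory subunits in the left panel and catalytic subunits in the right panel. The dark PIK3R3 segment is 6.37 and 7.37 with carnosine, against 1.58 and 1.03 in controls, while the catalytic stacks stay between 10.9 and 13.4.

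With carnosine, the levels per kilobase of exon ran from PIK3R4 (12.1 ± 1.05, SD, n = 2) and PIK3C2A (8.65 ± 0.83) through PIK3R3 (6.87 ± 0.70) to PIK3CD (4.69 ± 0.07). They went on through PIK3CB (4.38 ± 1.38), PIK3R1 (3.81 ± 0.02) and PIK3CA (3.58 ± 0.31) to PIK3C2B (1.73 ± 0.78), PIK3C3 (1.61 ± 0.05) and PIK3R2 (0.280 ± 0.067). In controls, PIK3R4 (11.4 ± 0.81) and PIK3C2A (8.23 ± 0.06) again led, followed by PIK3CB (4.28, from library values of 4.99 and 3.57), PIK3CD (3.79 ± 0.16), PIK3CA (3.54 ± 0.14) and PIK3R1 (2.73 ± 0.11). PIK3C3 (1.60 ± 0.15), PIK3R3 (1.30 ± 0.39), PIK3C2B (0.813 ± 0.230) and PIK3R2 (0.205 ± 0.004) closed that order. PIK3R3 thus stood at place 3 of the 10 genes with carnosine and at place 8 in controls. The library values of PIK3CB overlapped those of PIK3CD and PIK3CA in both groups, and with carnosine they also overlapped those of PIK3R1. PIK3R1 and PIK3CA overlapped with carnosine, PIK3C2B and PIK3C3 overlapped with carnosine, and PIK3R3 and PIK3C3 overlapped in controls. These places in the order do not differ beyond the spread between libraries. The union of exons counts every annotated exon, which lowers the level of a gene such as PIK3C3 (15198 bases) against its longest coding transcript (9443 bases).

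Around PIK3R3, 17.4% of its exonic bases (1292 of 7410) also belong to AL358075.4, a read-through gene of the same strand now named P3R3URF-PIK3R3, which had 0 counts in every library. The upstream gene that it joins, AL672043.1 (P3R3URF), had 0 counts as well. The nearest protein-coding gene on the lower side, MAST2, a kinase gene on the plus strand, ends 4016 bases away. MAST2 had 169.5 and 167.8 CPM with carnosine, against 160.4 and 145.3 CPM in controls, and its log2 fold change was 0.14 ± 0.10 (SE, adjusted p = 0.431, edgeR). On the other side TSPAN1, a tetraspanin gene on the plus strand that starts 42037 bases away, had 2.18 and 1.93 CPM with carnosine, against 1.58 and 1.23 CPM in controls. Its log2 fold change was 0.55 ± 0.28 (SE, adjusted p = 0.256, edgeR). Neither neighbour passed the test.

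Of 42 other genes of the pathway, 35 were tested and 0 passed edgeR's test in either direction, against 8.31% of all genes tested. At an unadjusted p under 0.05 there were 8. DESeq2 called 1 (IRS2), against 13.0% of all genes, and limma-voom called 0, against 8.09%. The share of all genes at an unadjusted p under 0.05 is not given, so such counts, here and below, cannot be set against it. Log2 fold changes were above 0 for 19 and below 0 for 16, with a median of 0.07.

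Of 6 other PI3K subunits and modulators, those of the leukocyte class IB enzyme and its adaptors were nearly absent: PIK3CG had 0 and 2 counts with carnosine, against 3 and 4 in controls. PIK3IP1, an inhibitor of the class I enzymes and the only one of these 6 genes to be tested, had 36 and 27 counts with carnosine, against 26 and 15 in controls. Its log2 fold change was 0.86 ± 0.44 (SE, adjusted p = 0.265, edgeR).

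Of 7 receptors and adaptors that recruit class I PI3K, 0 passed edgeR's test and 2 had an unadjusted p under 0.05, with a median log2 fold change of -0.03. IRS1, the insulin receptor substrate with the most counts of the list, had 180.4 and 166.2 CPM with carnosine, against 150.9 and 134.7 CPM in controls (log2 fold change 0.28 ± 0.11 SE, adjusted p = 0.161, edgeR). FRS2, an adaptor of fibroblast growth factor receptors, had a log2 change of -0.03 ± 0.10 (SE, adjusted p = 0.889, edgeR). IRS2, a second insulin receptor substrate named after its values were seen, came nearest of the list to the threshold. It had 9.51 and 8.16 CPM with carnosine, against 5.22 and 5.76 CPM in controls, and its log2 fold change was 0.69 ± 0.16 (SE, adjusted p = 0.0507, edgeR), which did not pass.

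Of 6 kinases of the AKT axis, 0 passed edgeR's test and 1 had an unadjusted p under 0.05, with a median of -0.02. AKT1 had 198.9 and 198.2 CPM with carnosine, against 219.4 and 214.5 CPM in controls (log2 fold change -0.13 ± 0.10 SE, adjusted p = 0.456, edgeR). AKT2 had a log2 change of -0.02 ± 0.10 (SE, adjusted p = 0.920, edgeR), with overlapping groups. Of 15 tested phosphatases of 17 listed, 0 passed edgeR's test and 4 had an unadjusted p under 0.05, with a median of 0.07. MTMR4, a myotubularin that acts on the lipid product of the class III kinase, had the most counts, with a log2 change of 0.11 ± 0.10 (SE, adjusted p = 0.526, edgeR). INPP5J, an inositol polyphosphate phosphatase gene named after its values were seen, had the largest log2 fold change of the lists at 1.40 ± 0.41 (SE, adjusted p = 0.0795, edgeR) and did not pass. It had 1.80 and 1.13 CPM with carnosine, against 0.675 and 0.426 CPM in controls.

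Of 6 partners of the class III kinase, 0 passed edgeR's test and 1 had an unadjusted p under 0.05, with a median of 0.13. BECN1, the beclin 1 gene, had 84.5 and 81.7 CPM with carnosine, against 99.0 and 94.1 CPM in controls (log2 fold change -0.22 ± 0.09 SE, adjusted p = 0.196, edgeR). AMBRA1, which binds beclin 1, had 80.7 and 79.1 CPM with carnosine, against 71.5 and 69.5 CPM in controls (0.18 ± 0.09 SE, adjusted p = 0.257, edgeR). The libraries of both genes lay apart, in opposite directions.

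**Figure D4:**
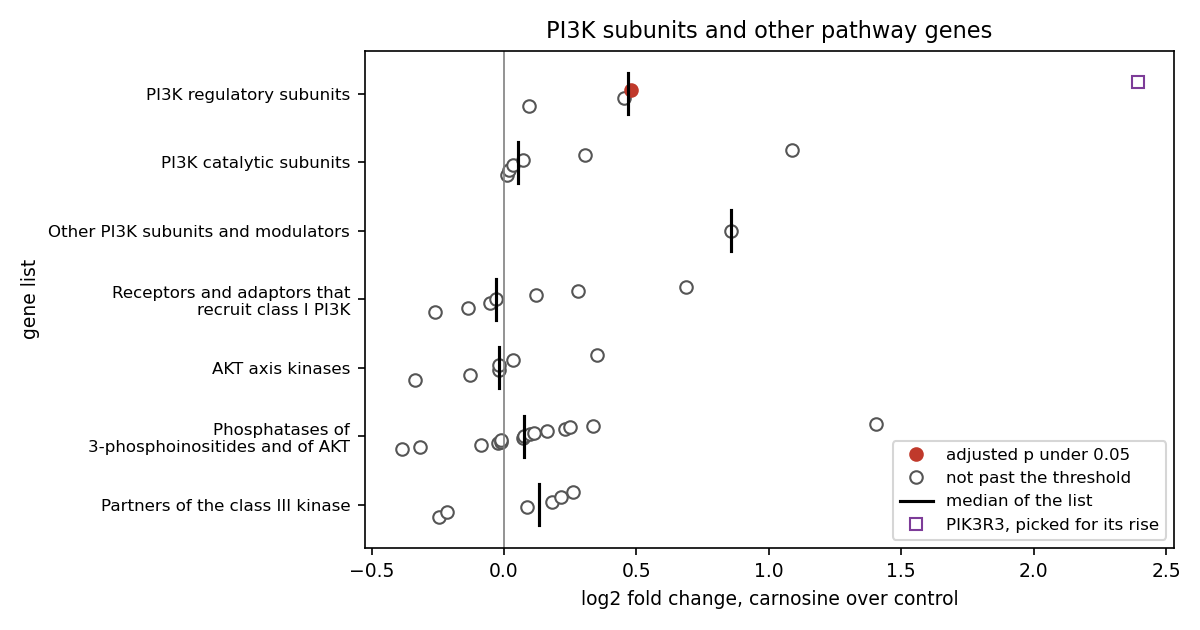
Log2 fold change of carnosine over control for each tested gene, in rows by list, with a vertical tick at the median of each list, filled points past an adjusted p of 0.05 and PIK3R3 as an open square. Apart from PIK3R1 at 0.48, all points of the subunits and of the 35 other pathway genes are open, and the list medians of receptors, AKT axis kinases and phosphatases lie between -0.03 and 0.07.

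The genes most like PIK3R3 over the 4 libraries were found by the distance between log2(CPM + 0.5) values centred on the mean of each gene, among 7656 protein-coding genes with a mean level within 4 times that of PIK3R3. The nearest was GRIN2A, a subunit gene of the NMDA receptor, at a distance of 0.170, with 20.1 and 23.1 CPM with carnosine, against 4.25 and 3.22 CPM in controls. ARG2, the mitochondrial arginase gene, followed at 0.360, with 19.6 and 20.9 CPM with carnosine, against 4.32 and 3.80 CPM in controls. DIO2, the gene of an iodothyronine deiodinase, stood at 0.447, with 12.3 and 13.0 CPM with carnosine, against 3.83 and 2.25 CPM in controls. In these genes, as in PIK3R3, control replicate 2 was the lowest library and carnosine replicate 2 the highest. SVEP1, an extracellular adhesion protein gene, at 0.900, and NNMT, the nicotinamide N-methyltransferase gene, at 0.904 were farther away, with carnosine replicate 1 well below replicate 2. Likeness over 4 libraries of 2 groups says little more than that these genes were higher with carnosine by a similar factor.

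**Figure D5:**
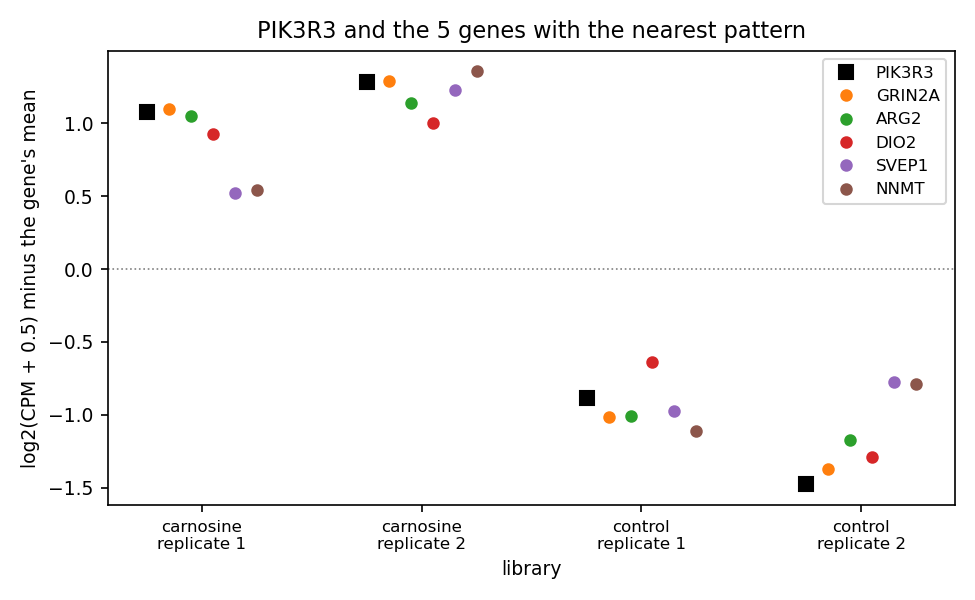
Log2(CPM + 0.5) minus the mean of each gene over the 4 libraries, 1 point per gene and library, for PIK3R3 (black squares) and the 5 genes with the nearest pattern. All 6 genes lie above 0 in both carnosine libraries and below 0 in both controls, and GRIN2A, at a distance of 0.170, follows PIK3R3 most closely.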

How the data were processed

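The authors deposited unnormalized counts of whole numbers, 1 per gene, for 2 carnosine and 2 control libraries of U87 total RNA. Per the labels' protocols, ribosomal RNA was depleted, libraries were stranded and paired, and all 4 were pooled on a single flow cell. HISAT2 2.1.0, HTSeq 0.6.1, bcl2fastq 2.17.0 and hg38 were used, per the submitters' processing notes. The sources used here do not give the annotation release, counting mode or strand setting, so counts of overlapping and antisense genes are uncertain. Replicates were not copies of a library, since chi-square per degree of freedom between them was 53.0 for carnosine and 33.8 for controls. There were 0 value columns of other samples.

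The members, gene lists and settings were chosen with earlier results of these data known. Genes were kept by the default filter of edgeR 4.0.16 (filterByExpr, minimum count 10, total 15), which left 16340 of 58219. The test was edgeR's quasi-likelihood F test, two-sided, with TMM scaling, no term other than the group, residual df of 2 and Benjamini-Hochberg adjustment over all genes tested, at 0.05, in R 4.3.3. Tested on simulated counts, it made more false calls than that threshold allows and missed most of the smallest known folds. Far fewer genes were changed there than were called in the data, so these rates do not carry over directly. Such errors limit both the PIK3R1 call and the count of 0 for other pathway genes, to an unknown degree. SE is the absolute log2 fold change over the square root of F. CPM uses the scaled library sizes. Exon lengths and positions come from GENCODE 29, where all 10 members were found by identifier without version, and promoter windows from RefSeq, where all 10 matched by symbol. Depth limits genes such as PIK3R2 most, and counting error is only part of the spread. Alternatives were RLE, upper-quartile and unscaled totals, 2 other filters, DESeq2 1.42.0, limma-voom 3.58.1, a replicate block and leaving out each library.

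Named were all members, passing genes of each list or else the 2 with the most counts, the nearest coding gene on each side of PIK3R3 and the 5 genes with the most similar pattern. A gene that this rule names is not reported here.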

Additional observations from a re-analysis of the deposited data

How the results depend on the processing

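With 2 libraries a group, the count of calls moved with the fit. Against 1358 genes, there were 3145 with no filter on low counts, 2130 with DESeq2 and 5767 with the replicate number as a block, and between 505 and 1595 with 1 library left out. The lowest counts came without control replicate 2 (505) and without control replicate 1 (635). The causes of these differences were not tested, and the fits that leave out a library also have a smaller design. Libraries with the same replicate number deviated together (r = 0.451 across genes, which are not independent), but the labels do not say that a number marks a shared culture or day, and 2 pairs do not settle it. Under that replicate block 4 of the 10 members passed, against 2 without it, but both counts include PIK3R3, which was chosen on this contrast. Of the other 9, 3 passed with the block (PIK3R1, PIK3CD and PIK3C2B) and 1 without it. Of the other pathway genes 12 of 35 passed with the block (34.3%), near the 35.3% of all genes tested in that fit.

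With 1 library left out, log2 fold changes lay between 0.44 and 0.52 for PIK3R1 and between 0.53 and 1.48 for PIK3C2B. Of the other pathway genes, 1 passed with RLE size factors (2.86%, against 8.37% of all genes), 1 with DESeq2 (2.86%, against 13.0%), 4 with no filter (9.76%, against 12.0%), and between 0 and 2 with a library left out. Fits with a library left out keep 1 library in a group, and their calls over all genes differed widely, as given above. Their counts for the pathway are therefore not weighed against the other settings. The log2 fold change of PIK3R3 lay between 2.12 and 2.74 with a library left out, and between 2.39 and 2.41 in the other alternatives. As PIK3R3 was chosen for this rise, these ranges describe its size and are no support for it. Signs turned for uncalled catalytic genes when libraries were left out: the values ran from -0.076 to 0.10 for PIK3CA, -0.33 to 0.32 for PIK3CB, -0.033 to 0.16 for PIK3C2A and -0.085 to 0.11 for PIK3C3. The mean PIK3R3 share of class IA regulatory transcripts with carnosine, 62.6% per kilobase of exon, was 54.5% with no division by length, 59.5% with the longest coding transcript and 58.0% with unshared exons.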
